A study of Mus musculus with 2 samples.

Results

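The 10 genes of iron and haem handling were followed in apoE-KO mouse liver, with and without 1 week of the high-Chol diet: transferrin (Trf), its receptors (Tfrc, Tfr2), the iron transporters Slc11a2 and Slc40a1, ceruloplasmin (Cp), the ferritin chains (Fth1, Ftl1), hemopexin (Hpx) and heme oxygenase 1 (Hmox1). The genes were chosen by name, and they stand for 10 of the 27962 gene names on the arrays. The array design held 8 of them under these names, and 2 were found under older names through their accessions, Tfr2 as Trfr2 (NM_015799) and Hpx as Hpxn (NM_017371). Their 12 probes were part of 41174, and all 10 genes, above background on each of the 6 arrays, entered the comparison of 16730 genes.

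The RNA came from male mice on the C57BL/6 strain that lacked apolipoprotein E in both groups, so that the chow controls were hypercholesterolemic animals and not normal ones. The diets differed in added Chol (1.25%), lasted 1 week and began when the animals were 10 weeks old, and each was measured in 3 independent experiments. Liver RNA was copied into Cy3-labeled cRNA and hybridized to one-colour Agilent arrays, where each gene is read as the brightness of spots of 60-base probes. The sources used here do not say how many mice stood behind an array, and the extract held all cells of the liver, so that fewer cells of a type and less RNA per cell cannot be told apart.

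The layout of the slides bears on every value. The 3 chow arrays and 1 high-Chol array lay on slide 1, and the other two high-Chol arrays lay on slide 2, which was read with version 9.1 of the scanner software in place of 9.5. The 75th percentile of the spot signal was 271 to 373 on slide 1 and 762 to 799 on slide 2. For the high-Chol arrays of slide 2, diet and slide cannot be told apart. The fit with slide as a block rests on the single high-Chol array beside the 3 chow arrays, and its value is given beside each of the 10 genes and beside some of the others. Of hepatocyte markers, 9 of 10 were matched, and each of the 9 was above background on all 6 arrays.

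Iron reaches the hepatocyte bound to transferrin, which the liver itself secretes, and enters through the transferrin receptors. Slc11a2 (DMT1) carries ferrous iron across membranes, ferritin stores it in a shell of heavy and light chains, and Slc40a1 (ferroportin) releases it again, helped by the ferroxidase ceruloplasmin. Ferroportin is removed from the cell surface by hepcidin, the liver hormone that holds plasma iron down. Free haem is bound in plasma by hemopexin and split by heme oxygenase into iron, carbon monoxide and biliverdin, a step in which liver macrophages that clear old red cells take a large part. Many of these mRNAs, among them those of the ferritins, ferroportin and Tfrc, are also controlled after transcription by iron regulatory proteins, and an array measures mRNA only.

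Hmox1 and Slc11a2 were the genes whose diets stood apart, and the sequences behind their signals are shown first, because the 3 probes of Slc11a2 did not give the same answer. All positions are those of the array annotation (mm7), which names no exon. The Hmox1 probe lay at chr8:73642229-73642288 on the plus strand. The Slc11a2 probes lay on the minus strand at chr15:100395330-100395389, at chr15:100378161-100378220 and at chr15:100373147-100373206, in the order of transcription. The first of these is 22183 bases from the last, and the middle one 5014 bases. The 5′-most probe is printed whole and the others by their last 30 bases, in lower case, with capitals for the letters AATAAA, the usual signal for cleavage and polyadenylation.
Slc11a2, 5′-most probe: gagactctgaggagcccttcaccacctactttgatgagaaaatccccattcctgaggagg
Slc11a2, middle probe: acggtacttcaacagtacagtaacctgtaa
Slc11a2, 3′-most probe: ttgttatAATAAAgttcatgcttaatagct
Hmox1 probe: cgactgctgtcccccagtgccatggccact
The whole 5′-most probe could be read without a stop codon in 2 of the 3 frames of its strand, whereas the middle and the 3′-most probe of Slc11a2 and the probe of Hmox1 had a stop codon in every frame, which was true of 21.8% of all probes on the array. The 3′-most probe held AATAAA on its own strand, as did 4.78% of all probes and, among the other probes of the 10 genes, that of Slc40a1. The middle probe was designed on another transcript record (AK148276) than its neighbours (NM_008732). A match of these letters describes the probe and not the transcript it measured.

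None of the 10 genes passed the limma test after Benjamini-Hochberg adjustment over all genes (0 of 10), while the share of all genes called in this comparison was 2.92%. With slide as a block the count was also 0 of 10, against 0.0658% of all genes. Without adjustment 1 of the 10 (Hmox1) was higher at p under 0.05 and 0 were lower, against 12.3% and 8.83% of all genes. The diets did not overlap for 2 of the 10, Hmox1 and Slc11a2, both higher on the high-Chol diet. Over all genes the diets did not overlap in that direction for 11.6% and in either direction for 25.4%. The difference was positive for 5 genes, as for 47.8% of all genes, and negative for 5, and its median was -0.024 on the log2 scale over the 10 genes and -0.023 over all genes tested. The 10 differences ranged from -0.30 to 0.80, with 1 gene (Hmox1) over 1.5-fold higher and 0 over 1.5-fold lower, against 15.4% and 5.84% of all genes. The levels below are the log2 of the background-subtracted signal minus the 75th percentile of the array, and means are given ± SD over 3 arrays.

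**Figure D1:**
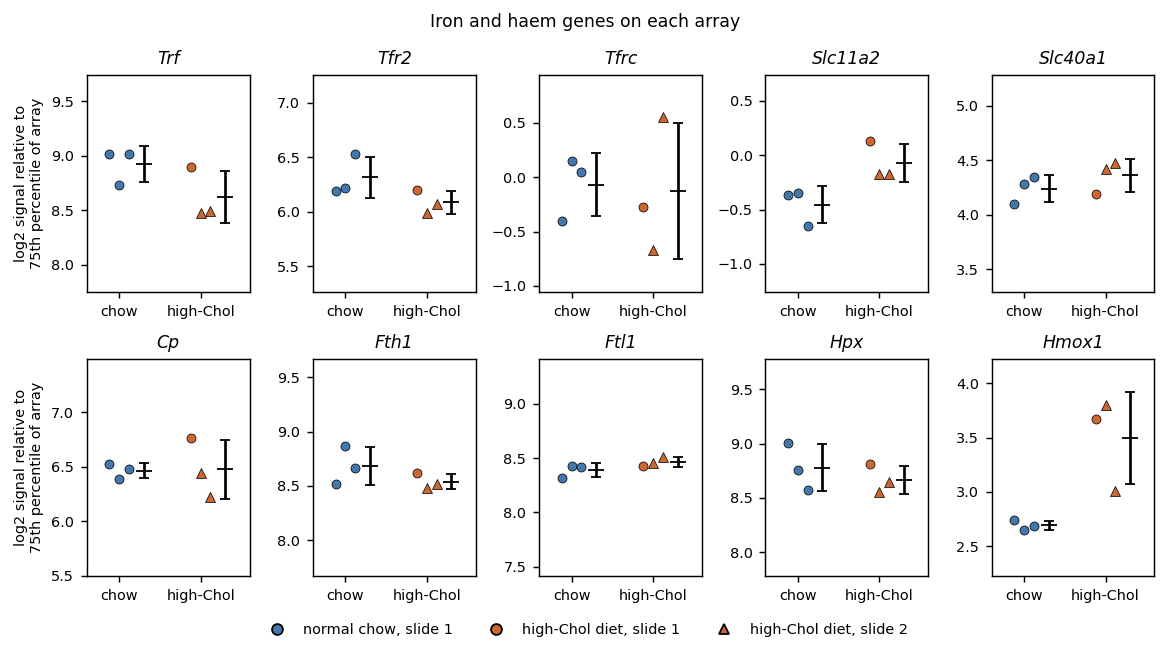
Each panel plots the log2 signal of 1 gene relative to the 75th percentile of its array, on normal chow (blue) and on the high-Chol diet (orange), with circles for slide 1, triangles for slide 2 and bars for the mean ± SD of 3 arrays. Every panel spans the same height, and the diets are apart only for Hmox1 and Slc11a2.

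The carrier and its receptors had lower means on the high-Chol diet, none past the test. Trf, the plasma iron carrier, was at 9.02, 8.73 and 9.02 on the chow arrays, at 8.90 on slide 1 of the high-Chol diet and at 8.47 and 8.49 on slide 2. Both arrays of slide 2 were below every chow array, whereas the high-Chol array that shared the slide with chow lay within the chow range. The difference was -0.30 (SE 0.18, adjusted p = 0.37 with limma). A block for slide left -0.025 of it.

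Tfr2, the receptor that hepatocytes use to sense iron-loaded transferrin, was at 6.19, 6.22 and 6.53 on chow, at 6.20 on slide 1 of the high-Chol diet and at 5.99 and 6.07 on slide 2. The diets overlapped through the slide 1 array. Its difference was -0.23 (SE 0.16, adjusted p = 0.43), with a 95% interval from -0.61 to 0.15, and the slide block gave -0.11.

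Tfrc, the receptor that takes up transferrin in most cells, varied most among the 10 genes. It was at -0.40, 0.14 and 0.04 on chow, at -0.27 on slide 1 of the high-Chol diet and at -0.67 and 0.55 on slide 2. The lowest and the highest of the 6 arrays were thus the 2 high-Chol arrays of the same slide. Each array held 10 spots of this probe, and their SD within an array was 0.04 to 0.16, with 1 spot left out on the second chow array. The SD between arrays was 0.29 on chow and 0.62 on the high-Chol diet, and besides spot noise it holds what differed between the RNA samples. The difference between the diets was -0.06 (SE 0.33, adjusted p = 0.93), and its interval from -0.83 to 0.71 covered differences of over 1.5-fold in both directions. The slide block gave -0.20.

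Of the transporters, Slc11a2 was represented by its middle probe, the brightest of 3 by the mean over all 6 arrays, high-Chol arrays included. On the chow arrays alone the 3′-most probe had the higher mean, -0.33 against -0.45. The middle probe gave -0.37, -0.35 and -0.65 on chow, 0.13 on slide 1 of the high-Chol diet and -0.17 and -0.17 on slide 2. All high-Chol arrays were above all chow arrays. The difference was 0.38 (SE 0.17, adjusted p = 0.25), or 1.30-fold, and the slide block gave 0.59 (adjusted p = 0.47).

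The 2 neighbouring probes did not both follow. The 5′-most probe, the one with open frames, gave -2.22, -2.23 and -1.65 on chow, -1.70 on slide 1 of the high-Chol diet and -1.02 and -0.86 on slide 2. Here the slide 1 array of the high-Chol diet lay just below the highest chow array, so the diets overlapped, although the difference was larger at 0.84 (SE 0.27, adjusted p = 0.17 over all probes). The 3′-most probe, which holds AATAAA, gave -0.57, -0.51 and 0.07 on chow against -0.77 on slide 1 and -0.51 and -0.35 on slide 2 of the high-Chol diet. Its diets overlapped and its difference was -0.21 (SE 0.22, adjusted p = 0.60), in the opposite direction to the other two. The differences between probes were not tested, and a single value for Slc11a2 therefore depends on which probe is read. Read by either neighbour, only Hmox1 would have been without overlap among the 10 genes.

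**Figure D2:**
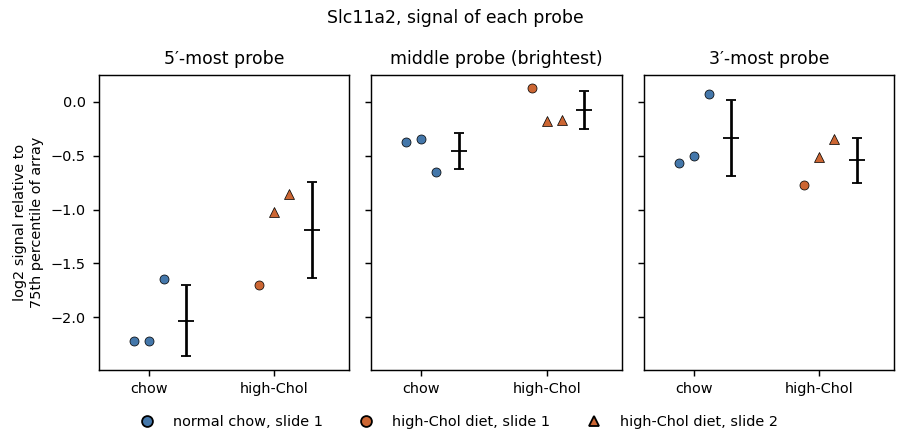
The log2 signal of the 3 Slc11a2 probes, scaled to the 75th percentile of the array, is plotted in the order of transcription, with chow in blue, the high-Chol diet in orange, circles for slide 1, triangles for slide 2 and bars for the mean ± SD of 3 arrays. The middle probe has no overlap between the diets, and the 3′-most probe has the opposite difference, -0.21.

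Slc40a1, the only known cellular iron exporter, was at 4.10, 4.28 and 4.35 on chow, at 4.19 on slide 1 of the high-Chol diet and at 4.42 and 4.48 on slide 2. The diets overlapped, and the difference was 0.12 (SE 0.16, adjusted p = 0.67). It turned to -0.055 with slide as a block and to -0.12 after median scaling.

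Cp, the copper-bearing ferroxidase of plasma that also belongs to the acute-phase proteins, was at 6.52, 6.39 and 6.48 on chow and at 6.76 on slide 1 and 6.44 and 6.23 on slide 2 of the high-Chol diet. The chow arrays lay inside the range of the high-Chol arrays. The means differed by 0.01 (SE 0.18, adjusted p = 0.98), and by 0.30 with slide as a block (adjusted p = 0.72).

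The diets overlapped for both ferritin chains. Fth1, the heavy chain with the ferroxidase site, was at 8.52, 8.86 and 8.66 on chow and at 8.62, 8.48 and 8.52 on the high-Chol arrays, the first of them on slide 1. Its difference was -0.14 (SE 0.16, adjusted p = 0.60) and -0.063 with a slide block, with overlap between the diets. Ftl1, the light chain, was at 8.31, 8.43 and 8.42 on chow and at 8.42, 8.46 and 8.51 on the high-Chol diet. The SD of Ftl1 was 0.06 on chow and 0.04 on the high-Chol diet, against a median SD over all genes of 0.20 and 0.25. With this small spread the difference of 0.08 (SE 0.14, adjusted p = 0.75) had a 95% interval from -0.24 to 0.40, which leaves out a change of 1.5-fold in either direction under this scaling. The slide block gave 0.038. Ftl1 has a near-identical copy on the array, Ftl2, so the 2 signals may not be separate; Ftl2 differed by -0.01.

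Hpx, the plasma protein that binds free haem, was at 9.01, 8.76 and 8.57 on chow and at 8.81, 8.55 and 8.64 on the high-Chol diet, the first of them on slide 1. The diets overlapped almost throughout. The difference was -0.11 (SE 0.17, adjusted p = 0.72), or 0.029 with a slide block.

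Hmox1, the inducible enzyme that opens the haem ring, had the largest difference of the 10 genes. It was at 2.74, 2.65 and 2.69 on the chow arrays, at 3.67 on slide 1 of the high-Chol diet and at 3.80 and 3.01 on slide 2. The chow arrays were almost alike, and all 3 high-Chol arrays lay above them, with one array of slide 2 between the others and chow. The means were 2.69 ± 0.04 and 3.49 ± 0.42, a difference of 0.80 (SE 0.23, 95% interval 0.26 to 1.34), or 1.74-fold. This did not pass the adjusted test (adjusted p = 0.13 with limma). In the order of all 16730 differences from the highest, Hmox1 stood at place 1817.

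On slide 1 alone, with 1 high-Chol array, the Hmox1 difference was 0.98 (slide as a block, adjusted p = 0.43). Leaving out each array in turn it was 0.65 to 1.04, and it stayed positive under each scaling that was run, from 0.56 to 1.01. An exact permutation test of 3 against 3 arrays cannot give a two-sided p below 0.1.

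**Figure D3:**
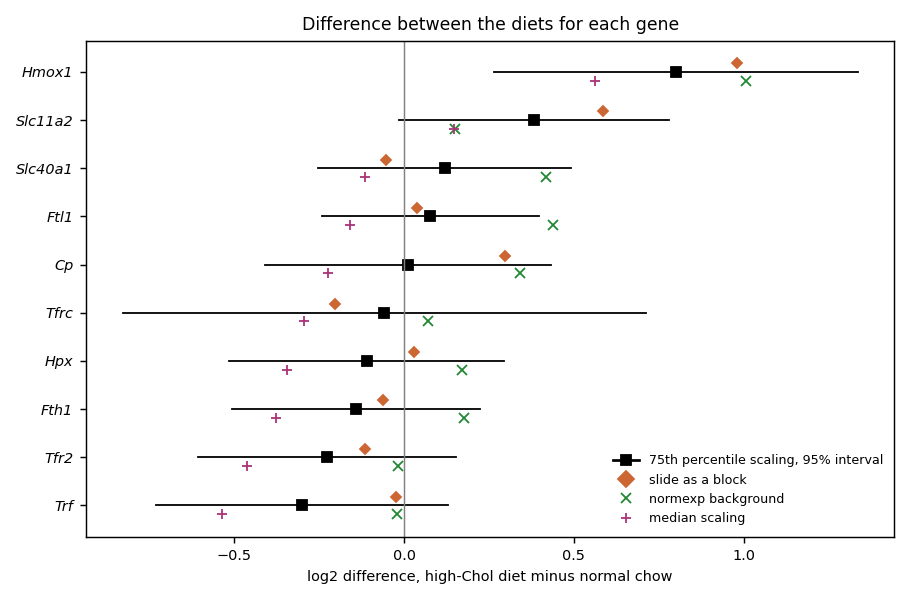
For each of the 10 genes the black square and line give the log2 difference between high-Chol diet and normal chow with its 95% interval, and the other marks give the difference with slide as a block, with a normexp background and after median scaling. Only the interval of Hmox1 lies wholly above 0, and most other genes change sign between the marks.

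Liver macrophages express Hmox1. Of 15 macrophage markers 14 were tested, and 5 of them rose past the test (Cd68, Cd5l, Lyz2, Marco and Mpeg1; background 2.69%). Positive differences were found for 13, of which 11 did not overlap between the diets (background 11.6%), and Cd163 had a negative one. The 5 rises were 1.01 to 1.83. In the slide block they were 0.86 to 1.99 and 0 of the 5 passed (adjusted p from 0.083 to 0.25), as 11 of all genes did. With a normexp background they were 1.31 to 2.06 and 0 passed, as for all genes. The summed level of all 14 tested macrophage markers, in units of the 75th percentile signal of the array, was 191 to 225 on chow and 451 to 592 on the high-Chol diet, with 451 on slide 1. On every one of the 6 arrays all 14 were above background, and none was at 0. Of the 9 hepatocyte markers 8 had negative differences, and 0 of 9 passed the test (2 lower and 1 higher at p under 0.05 without adjustment). Without overlap 3 were lower and 1 higher (background 13.7% and 11.6%). Their summed level was 2489 to 2766 on chow and 2033 to 2150 on the high-Chol diet. The erythroid markers, of which 5 of 13 were tested, had a summed level of 47.9 to 96.2 on chow and 76.4 to 122 on the high-Chol diet, with 0 of 5 called (1 lower at an unadjusted p under 0.05). Of these 5, 2 were lower and 0 higher without overlap (background 13.7% and 11.6%). The hemoglobin genes Hba-a1 and Hbb-b1 had positive differences and the other 3 markers (Alas2, Klf1 and Slc4a1) negative ones, and the median of the 5 was -0.33. Stellate cell markers had 8 positive differences of 10 tested, 2 of them without overlap. Col1a1, a collagen chain, passed the test at 1.04 (background 2.69%) but not in the slide block, where it was 1.16 (adjusted p = 0.15), and its difference was 0.54 with a normexp background. The summed level of the 10 stellate markers was 11.8 to 16.2 on chow and 16.3 to 19.8 on the high-Chol diet. Among 10 liver endothelial markers 8 differences were positive, 2 without overlap, and 0 passed (1 higher at p under 0.05 without adjustment), with a summed level of 40.2 to 45.7 on chow and 43.0 to 48.0 on the high-Chol diet. The part of these cells in the values of Hmox1 and of the other genes was not tested.

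The other genes of the pathway were taken from a list of 85, of which 83 were matched to the arrays and 81 were tested. Flvcr1 and Isca2 had no match, and Cybrd1 and Fam132b did not pass the filter on dim probes. Of the 81 genes, 1 passed the test, the siderophore-binding protein Lcn2, which was higher (background 2.69% of all genes higher and 0.227% lower). Of the 81, 6 had passed the filter only through the high-Chol arrays, and 75 were above background on every array. Among these 75, the diets did not overlap for 5 higher and 14 lower genes. The background of 11.6% and 13.7% is over all 16730 genes, those that passed the filter through 1 diet included. It was not counted for genes above background on every array. Of the 75 differences 21 were positive and 54 negative, with a median of -0.15. Over the 14344 genes above background on all 6 arrays the median was -0.073. Signs depended on the scaling: over the 81 genes 27 differences were positive, 36 with a normexp background, 41 with quantile normalization, 18 after median scaling and 30 with a slide block.

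**Figure D4:**
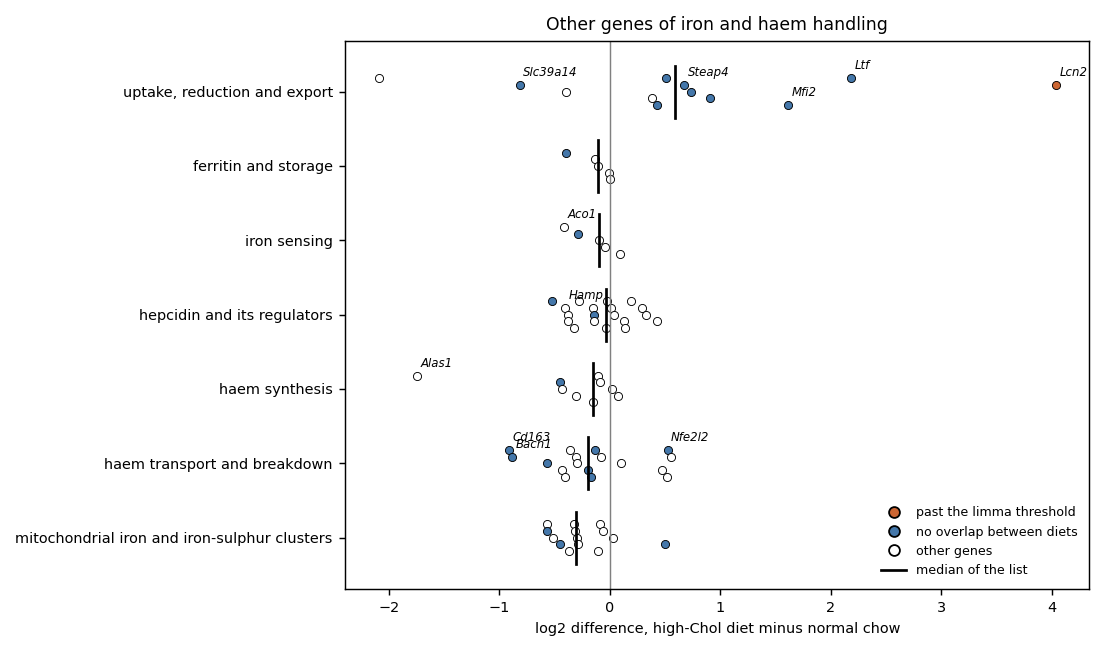
Each point is the log2 difference of 1 of 81 genes between high-Chol diet and normal chow, by group of the list, in orange where limma called it, in blue where the diets did not overlap and in white otherwise, and a bar marks the median of the group. Lcn2 is the one gene called, and the group of uptake, reduction and export is the widest.

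Uptake, reduction and export held the largest differences. Of 12 tested, 6 (Heph, Ltf, Mfi2, Steap1, Steap2 and Steap3) passed the filter on dim probes only through the high-Chol arrays, all 6 had positive differences, and all 6 turned negative with a normexp background, so counts over the 12 follow the filter. Of the 6 genes measured above background on every array, 3 had positive and 3 negative differences, with a median of 0.017. Lcn2, also called neutrophil gelatinase-associated lipocalin and an acute-phase protein, was at -1.51, -2.73 and -1.80 on chow and at 1.66 on slide 1 and 2.07 and 2.33 on slide 2 of the high-Chol diet. Every high-Chol array was far above every chow array. The rise was 4.03 (SE 0.34, adjusted p = 0.0053). It was 3.67 in the fit with a slide block but no longer passed (adjusted p = 0.08), and with a normexp background it was 2.63 and was not called.

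The Steap family, which holds ferrireductases, was tested in 4 genes, of which Steap1, Steap2 and Steap3 passed the filter only through the high-Chol arrays. Steap4 differed by 0.67 (SE 0.16, adjusted p = 0.09), Steap3 by 0.91 (SE 0.20, adjusted p = 0.07) and Steap1 by 0.73 (SE 0.24, adjusted p = 0.16; 0.36 with a slide block), each without overlap and none past the test. Steap2 differed by 0.38 (SE 0.38, adjusted p = 0.57) with overlap, and by -0.37 with a normexp background. The probes of Steap3 and Steap1 were not well above background on 1 chow array each and turned negative with a normexp background, to -0.36 and -0.65. For Steap4, a second and dimmer probe overlapped between the diets and gave 0.30.

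Ltf, the iron-binding lactoferrin of neutrophil granules, was at -5.01, -4.80 and -4.45 on chow, -4.13 on slide 1 of the high-Chol diet and -1.71 and -1.89 on slide 2. The brighter of its probes, used here, was high mainly on slide 2 and was well above background on 1 of 3 chow arrays. The difference of 2.18 (SE 0.61, adjusted p = 0.13) was 0.63 with slide as a block. The dimmer probe was highest on slide 1, at -2.57 against -3.46 and -2.95 on slide 2 and -5.23 to -4.03 on chow, and differed by 1.76 (SE 0.36, adjusted p = 0.056 over all probes) without overlap. That probe too was well above background on 1 of 3 chow arrays and passed the filter only through the high-Chol arrays. Of the neutrophil markers, Ltf among them, 4 of 8 were tested, of which Ltf had passed the filter only through the high-Chol arrays. Among the others S100a8 and S100a9 passed the test (background 2.69%), with rises of 3.21 and 2.90, which were 2.85 and 2.83 with a slide block and did not pass there (adjusted p = 0.083 and 0.077). With a normexp background their differences were 1.09 and 2.63, and neither was called. The summed level of the 4 tested neutrophil markers, Ltf included, was 1.58 to 1.78 on chow and 9.5 to 15.7 on the high-Chol diet, with 10.7 on slide 1.

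Mfi2 (melanotransferrin) was not well above background on any chow array. It was at -4.66, -4.41 and -4.89 on chow, at -4.30 on slide 1 of the high-Chol diet and at -2.31 and -2.52 on slide 2. The array of slide 1 lay just above chow and those of slide 2 far above it. Mfi2 passed the filter only through the high-Chol arrays, which favours a positive difference. The log2 difference was 1.61 (SE 0.50, adjusted p = 0.16 with limma) and did not pass the test. Under this scaling the lower limit of the rise was 2.39-fold. This limit rests on slide 2, since the log2 difference was 0.36 in the slide block. No limit was computed under the other scalings. There the log2 difference was 1.37 after median scaling and 1.36 with quantile normalization, but -0.37 with a normexp background. For this lower limit the chow mean was taken over, per array, the probe's own signal or the dimmest signal well above background, whichever was higher.

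Of the 3 genes with negative differences in this group, Slc39a14 (ZIP14), which brings iron that is not bound to transferrin into hepatocytes, was the one without overlap. It was at 2.06, 2.27 and 2.31 on chow and at 1.33, 1.18 and 1.69 on the high-Chol diet, the first of them on slide 1. All high-Chol arrays were below all chow arrays, and a second probe was also lower without overlap, by -0.36. The difference was -0.82 (SE 0.18), and the slide block gave -0.89. It did not pass the test (adjusted p = 0.07) and passed after median scaling, where it was -1.05, and with a trended and robust prior.

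The most negative difference of the 81 genes was that of Scara5, a scavenger receptor that takes up ferritin, named here after its values were seen. It was at 1.09, 1.22 and -1.0 on chow, at -0.89 on slide 1 of the high-Chol diet and at -2.44 and -1.63 on slide 2. The third chow array lay near the high-Chol array of its slide, and the diets overlapped. The difference was -2.09 (SE 0.65, adjusted p = 0.16) and -1.32 with a slide block. Slc22a17, the receptor of Lcn2, differed by -0.39 (SE 0.22) with overlap.

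Hepcidin and its regulators showed no gene past the test (0 of 19, with 1 lower at an unadjusted p under 0.05), and 8 differences were positive and 11 negative. Hamp, hepcidin itself, was at 5.36, 6.73 and 6.58 on chow, at 5.02 on slide 1 of the high-Chol diet and at 6.13 and 6.30 on slide 2. The lowest array of each diet was more than 1 log2 unit below the others of its diet, and the diets overlapped. The difference was -0.40 (SE 0.46, adjusted p = 0.62) and -1.20 with a slide block. It was -0.84 without the first chow array and -0.0055 when slide 1 of the high-Chol diet was left out. The related gene Hamp2, whose signal may not be separate, differed by -0.28 (SE 0.51). Both standard errors were above the median of 0.20 over all genes.

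Of the signals that set hepcidin, the ligand Bmp6 was read differently by its probes. Bmp6, which endothelial cells release as liver iron rises, differed by -0.03 (SE 0.17) on its brighter probe and by 1.04 (SE 0.50, adjusted p = 0.29) on a dimmer one, which was well above background on 1 of 3 chow arrays. Its targets Id1 and Smad7 differed by 0.19 (SE 0.38) and 0.29 (SE 0.46), the second with 1 high-Chol value missing. Tmprss6, the protease that restrains the pathway, differed by -0.15 (SE 0.14).

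Of 5 iron sensing genes, 0 passed the test (0 at an unadjusted p under 0.05). Aco1 and Ireb2, the iron regulatory proteins, differed by -0.41 (SE 0.21, adjusted p = 0.29) and -0.29 (SE 0.15, adjusted p = 0.31). Aco1 was at 5.30 to 5.50 on chow, at 5.42 on slide 1 of the high-Chol diet and at 4.78 and 4.87 on slide 2, and with slide as a block its difference was -0.01. Of the 5 genes of ferritin storage beside Fth1 and Ftl1, 0 passed (0 at an unadjusted p under 0.05). Their 5 differences were negative, but 4 of the 5 were positive with a normexp background or quantile normalization. Pcbp1, an iron chaperone of ferritin, lacked 2 high-Chol values on its brightest probe, and its other probe was higher without overlap, by 0.72 (SE 0.26, adjusted p = 0.20 over all probes). Ncoa4, the receptor that delivers ferritin to the lysosome, differed by -0.11 (SE 0.20).

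Haem synthesis was led by Alas1, the rate-limiting enzyme of the liver. It was at 6.52, 7.13 and 8.08 on chow, at 4.69 on slide 1 of the high-Chol diet and at 5.04 and 6.76 on slide 2. The spread within each diet was wide and the diets overlapped, since the highest high-Chol array lay above the lowest chow array. The difference was -1.74 (SE 0.61, adjusted p = 0.18), and the slide block gave -2.55. A second, dimmer probe gave -1.90 (SE 0.55, adjusted p = 0.14) without overlap between the diets. Of the 9 genes of the group, 7 had a negative difference and 0 passed (2 lower at an unadjusted p under 0.05). The negative differences numbered 5 with a normexp background or quantile normalization and 9 after median scaling.

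In haem transport and breakdown 0 of 17 genes passed (2 higher and 3 lower at p under 0.05 without adjustment). Negative differences numbered 12 of 17, but 8 with a normexp background or quantile normalization and 9 with a slide block. Bach1, the repressor of Hmox1 that haem displaces from DNA, was at -0.47, 0.12 and -0.22 on chow and at -0.71 on slide 1 and -1.17 and -1.35 on slide 2 of the high-Chol diet. All high-Chol arrays lay below chow. Its difference was -0.89 (SE 0.23, adjusted p = 0.11), of which -0.52 was left with a slide block. Nfe2l2 (NRF2), the activator that binds the same elements, was higher without overlap with a difference of 0.52 (SE 0.18, adjusted p = 0.18), or 0.25 with a slide block.

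Of 14 tested NRF2-responsive genes, 10 had a positive difference, 6 of them without overlap, 2 (Cat and Gstm1) were lower without overlap, where the background was 11.6% and 13.7%, and 0 passed (4 higher and 1 lower at p under 0.05 without adjustment), with a median of 0.32. Hmox2, the constitutive heme oxygenase, differed by -0.08 (SE 0.21, adjusted p = 0.84), and by 0.34 with slide as a block.

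Cd163, the macrophage receptor for haptoglobin bound to hemoglobin, was at -0.26, 0.02 and -0.40 on chow and at -1.39 on slide 1 and -1.49 and -0.51 on slide 2 of the high-Chol diet. The high-Chol arrays lay below chow, one of them only just. Its difference was -0.91 (SE 0.29, adjusted p = 0.15), and it was the single macrophage marker of 14 with a negative difference. Hp, haptoglobin, differed by -0.20 (SE 0.15) without overlap, and Slc48a1, a haem transporter of the lysosome listed under the name 4930570C03Rik, by 0.47 (SE 0.20) with overlap and by 0.13 with a slide block. Of 20 acute-phase genes, a list that holds Hp and Lcn2, 1 (Lcn2) passed (background 2.69%). Without overlap 7 were higher and 4 lower, against 11.6% and 13.7% of all genes. At p under 0.05 without adjustment 7 were higher and 3 lower, against 12.3% and 8.83% of all genes. Of the 20 differences 9 were positive and 11 negative, with a median of -0.091. In the mitochondrial group of iron and iron-sulphur cluster genes 12 of 14 differences were negative (8 with a normexp background), with a median of -0.31, and 0 passed (1 higher and 3 lower at p under 0.05 without adjustment).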

How the data were processed

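The authors deposited scanner output with background-subtracted spot intensity from 6 arrays (Feature Extraction, version 9.5 for slide 1 and 9.1 for slide 2; the labels name 9.1) and, beside it, log2 values with a single number for each probe on each diet. The authors had made these log2 values in Gene Spring GX by normalizing and filtering, with settings not given in the sources used here. Array positions are for mm7, and no genome was used.

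From the log2 signal of a spot, the log2 of the 75th percentile over the 43379 non-control spots of its array was subtracted. Outlier spots (75 to 196) were dropped, and spots of a probe averaged. A probe was tested if every array of 1 diet or of both called it well above background, and each gene was read from its brightest probe. The accessions of 22951 probes matched RefSeq gene records (GRCm38.p6, names only), and 187 of 192 listed genes were matched. High-Chol arrays were set against chow arrays by limma (version 3.58.1, R 4.3.3; lmFit, eBayes, no covariate) with Benjamini-Hochberg adjustment over 16730 genes and a threshold of 0.05. Intervals are 95% from the same fit. Tables and plots used data.table (version 1.17.8), pandas 2.3.3, numpy 2.4.6 and matplotlib 3.10.9 in Python 3.11.15.

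The members and lists were chosen with earlier results of these data known. Named genes were the 10 members, a set list of regulators and partners, and any other listed gene that limma called or that differed over 1.5-fold without overlap between the diets (6 genes). Other genes named here, such as Scara5, Nfe2l2, Pcbp1, Slc22a17, Ftl2, Steap2 and the single cell markers, were picked with their values known. The alternatives were a normexp background (offset 50), median scaling (floor 5), quantile normalization, no filter or a filter for all 6 arrays, every probe, the mean of probes, a block for slide, omission of each array, a trended and robust prior, the methods' t-test and the authors' values.

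A check on simulated data, made from this comparison and 16438 genes, tested the limma step: 38 of 93 genes changed by 1 log2 unit and 80 of 107 changed by 2 were called, with 7 false calls. The number of arrays limits the precision.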

Additional observations from a re-analysis of the deposited data

How the results depend on the processing

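None of the 10 genes passed the adjusted limma test under any setting (0 of 10), and Hmox1 alone passed the methods' t-test without adjustment (1 gene, p = 0.031, not an exact test). Signs were less stable. Over all genes tested, the median difference was -0.023 with the 75th percentile, -0.11 with normexp, -0.018 with quantile normalization, -0.26 with median scaling and -0.28 in the authors' values. The median over the 10 genes was -0.024, and became 0.17 with normexp, 0.13 with quantile normalization, -0.26 with median scaling and -0.27 in the authors' values. Relative to the median of all genes, 5 of the 10 lay above it with the 75th percentile, median scaling or the authors' values, 7 with quantile normalization and 10 with normexp.

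The number of genes called was 488 (450 higher, 38 lower) and 409 after median scaling (334 higher, 75 lower). It was 0 with normexp, 26 with no filter, 11 with slide as a block, 5 with the methods' t-test adjusted and 2789 unadjusted, and 42 (without the second chow array) to 3077 (without the high-Chol array of slide 1, where diet and slide cannot be told apart). Of the other iron and haem genes 1 was called. This became 0 with normexp, slide as a block or the adjusted t-test, 2 with median scaling (Slc39a14 added) or the mean of probes (Ltf added), 3 with a trended and robust prior (Slc39a14 and Steap4 added), 14 with the unadjusted t-test, and 1 to 16 when arrays were left out, the 16 again without the high-Chol array of slide 1.

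These differences changed sign, and none of them had passed the test. With normexp, Tfrc became 0.072, Fth1 0.18, Hpx 0.17, Ncoa4 0.25, Hamp2 0.037, Smad7 -0.20, Id1 -0.028, Tmprss6 0.22, Hmox2 0.16, Hp 0.093, Ltf -0.18, Mfi2 -0.37, Steap3 -0.36 and Steap1 -0.65. With quantile normalization, Fth1 became 0.045, Hpx 0.11, Ncoa4 0.064, Tmprss6 0.040, Hmox2 0.085 and Hp 0.18. With median scaling, Slc40a1 became -0.12, Cp -0.23, Ftl1 -0.16 and Id1 -0.044, and in the authors' values -0.12, -0.23, -0.16 and -0.051. With slide as a block, Slc40a1 became -0.055, Hpx 0.029, Smad7 -0.35, Id1 -0.41 and Hmox2 0.34. With the mean of probes Bmp6 became 0.51. Leaving out arrays, Tfrc ranged from -0.40 to 0.21, Cp from -0.13 to 0.14, Hpx from -0.21 to 0.0043, Hamp2 from -0.85 to 0.28, Bmp6 from -0.13 to 0.052, Smad7 from -0.35 to 0.93, Id1 from -0.13 to 0.49 and Hmox2 from -0.29 to 0.040. The cause was not tested. No paired analysis was possible because nothing in the labels ties a chow array to a high-Chol array.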
